A study of Sus scrofa with 2 samples.

Results

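Oocyte factor and zona pellucida genes were compared between ovarian tissue of minipigs and of conventional pigs. The 7 genes, BMP15, GDF9, ZP2, ZP3, ZP4, MOS and KIT, were listed by name and were found on the array through the RefSeq accession of their probes. They are 7 of 2459 genes that could be named in this way, with 11 probes in all, and all 7 were well above background on both arrays. RNA came from total ovarian tissue on day 15 of the estrous cycle, from which the methods say that corpora lutea had been cut away. Each breed, conventional pig (Yorkshire sows) and minipig (Midget minipigs), was measured on 1 single-colour Agilent array. All animals were female and 10 months old, with at least 3 completed cycles, and the methods describe no treatment of them. Per breed, 5 animals appear in the methods, which leave unsaid whether pooled RNA was hybridised.

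Scanner output and a table of normalized log2 values were both deposited, and they assign the arrays to opposite breeds. Over 5613 probes printed once, the minipig column of the table equals the log2 intensity of the array labelled conventional pig less a fixed amount, to within 7.46e-07. Its conventional pig column equals the array labelled minipig in the same way. Which assignment is right was not determined here. In its protein measurements, the paper reports more E2 and FSH in minipigs and more LH and PAPP-A in conventional pigs. The antibodies named for these were against E2 receptor alpha, FSH-beta, the LH receptor and PAPP-A, and RNA is a different measure from protein. By the scanner labels, the FSH receptor gene FSHR was higher for the minipig (log2 difference 3.63), while the FSH-beta gene FSHB was lower there (-0.60). The LH receptor gene LHCGR (0.62) and the E2 receptor gene ESR1 (0.29, with probes from -0.11 to 0.76) were higher there. No assignment was drawn from these values. Breeds are given by the scanner labels throughout, so that "minipig array" means the array labelled minipig, and by the labels of the table every direction is the opposite one. With 1 array per breed there are no replicates and no test was possible. The error given beside an intensity is the 1-SD estimate of the scanner software for that spot, and it covers neither animals nor arrays. Intensities are given unscaled, whereas folds and log2 differences are given after scaling each array by its 75th percentile (494 for the minipig, 513 for the conventional pig), so folds are slightly larger on the minipig side than the ratio of the intensities.

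Oocytes steer the follicle around them through secreted growth factors. GDF9 and BMP15 belong to the TGF-beta family, act on granulosa and cumulus cells through the receptor BMPR2 and its type I partners, and are required for normal follicle growth. ZP2, ZP3 and ZP4 are glycoproteins of the zona pellucida, the coat of the growing oocyte to which sperm bind. MOS is a kinase that switches on the MAP kinase chain during meiotic maturation and helps to hold the ripe egg at metaphase. KIT, the receptor tyrosine kinase for KIT ligand from granulosa cells, is carried by oocytes and also by theca cells, mast cells and melanocytes. In pigs, a duplication of KIT is part of the allele for the dominant white coat of breeds such as Yorkshire. The copy number of KIT was not measured here.

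Most of these genes were brighter on the minipig array. Of the 7 genes, 4 were higher there by 2-fold or more, namely KIT, MOS, ZP4 and ZP3, and 0 were higher by as much on the conventional pig array. Among all 2363 named genes with a value, 7.96% reached 2-fold on the minipig side and 11.7% on the conventional pig side. The median log2 difference of the 7 genes, minipig minus conventional pig, was 1.33, against -0.04 over all named genes and 0.12 over all probes. The 7 genes were chosen with earlier results of these data known, so these contrasts are not independent of the data. At a threshold of 1.5-fold, 6 of the 7 genes passed on the minipig side, beside 16.2% of all named genes, but GDF9 missed it with normexp background correction (0.45) and ZP2 with quantile (0.56) and loess (0.57) normalization. At 3-fold it was 2 genes, MOS and KIT, beside 3.09%, but MOS missed it with normexp (1.39) and ZP2 passed it with its brightest probe (1.96). In a bulk sample, fewer cells of a type and less RNA per cell cannot be told apart.

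**Figure D1:**
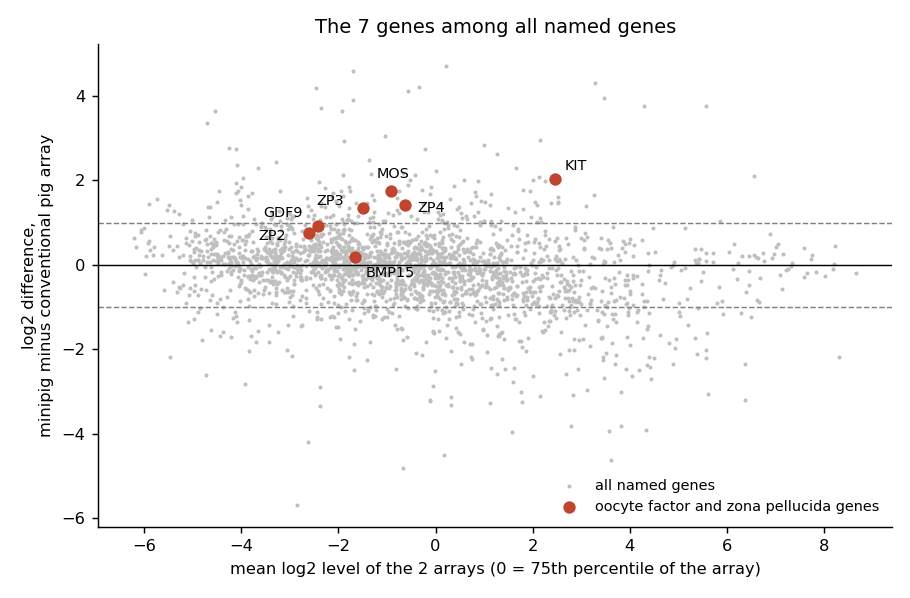
Log2 difference (minipig minus conventional pig array) against the mean log2 level of the 2 arrays, for all 2363 named genes (grey points) and for the 7 genes (red points, median over probes), with dashed lines at 2-fold. KIT, MOS, ZP4 and ZP3 lie above the upper line, GDF9 just below it at 0.92, and BMP15 near 0 at 0.18.

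By probe, 7 of the 11 reached 2-fold on the minipig side, beside 8.94% of all 38883 probes with a value. Measured against the spot error, 8 of the 11 probes lay more than 2 errors above 0, as did 26.7% of all 36659 that both arrays measured well above background. The other 3 probes, both of BMP15 and the dimmer of ZP2, lay within 2 errors of 0. Repeated spots gave a second view of the technical spread. Over 42 probes printed several times, the SD of a difference between 2 single spots was 0.25 on the log2 scale. This is somewhat larger than the 0.20 to 0.22 that the software gives for 10 of the 11 probes.

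**Figure D2:**
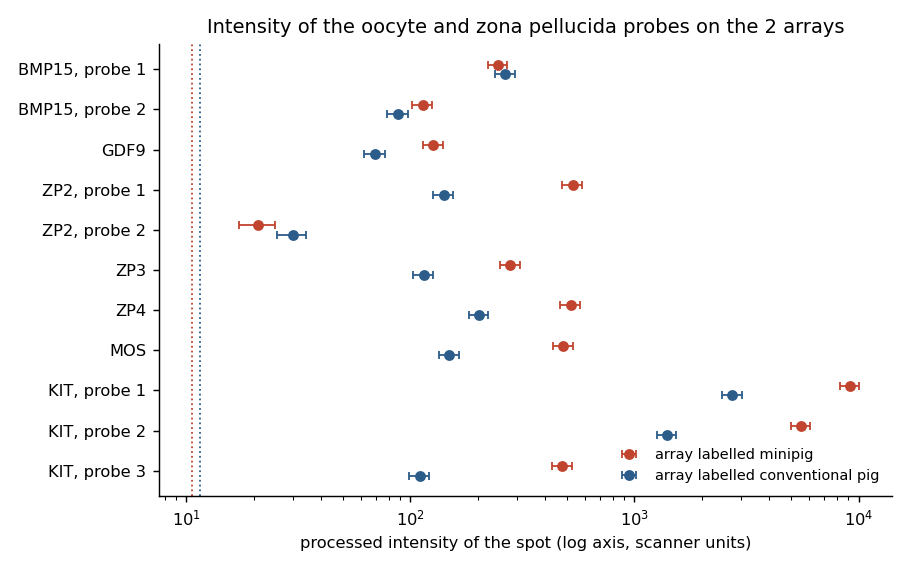
Background-corrected intensity of the 11 probes on the array labelled minipig (red) and the array labelled conventional pig (blue), on a log axis, with the 1-SD spot error of the software and, as dotted lines, the lowest intensity well above background on each array. Red lies right of blue for 9 probes, and the dim probe of ZP2 lies close to the dotted lines at 20.9 and 29.8, while levels of different probes are not comparable.

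Of the growth factors, BMP15 lay within 2 errors of 0 on both probes, and GDF9 was higher on the minipig array by less than 2-fold. The brighter probe of BMP15 (A_72_P035311) had an intensity of 246 ± 24.8 for the minipig and 265 ± 26.7 for the conventional pig. Its dimmer probe (A_72_P444814) gave 113 ± 11.7 and 88.0 ± 9.30. After each array was set to 0 at its 75th percentile, the log2 differences were -0.05 ± 0.21 and 0.42 ± 0.21, so the probes lay on opposite sides of 0, the dimmer close to 2 errors from it. The probes differed from each other by 0.47 ± 0.30, and their median was 0.18.

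GDF9, the partner of BMP15, was measured by 1 probe (A_72_P146326). Its intensity was 127 ± 13.1 for the minipig and 69.5 ± 7.61 for the conventional pig. After scaling, the value was 1.89-fold higher on the minipig array, a log2 difference of 0.92 ± 0.22, which is over 4 times its error but short of 2-fold, and it fell to 0.45 with normexp background correction. Set against BMP15 on the same arrays, where no scaling constant enters, the difference of GDF9 was larger by 0.97 ± 0.30 than that of the brighter BMP15 probe and by 0.50 ± 0.30 than that of the dimmer one. Only the first of these exceeds 2 errors.

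The zona pellucida genes ZP3 and ZP4 were alike. The intensity of ZP3, the zona glycoprotein long described as a sperm receptor in mice, was 279 ± 28.0 for the minipig and 115 ± 11.7 for the conventional pig (probe A_72_P078021). For ZP4, a zona glycoprotein that mice lack, it was 519 ± 51.9 and 202 ± 20.4 (probe A_72_P302704). After scaling, these are 2.52-fold and 2.66-fold higher on the minipig array, with log2 differences of 1.33 ± 0.21 and 1.41 ± 0.20. The differences of ZP4 and ZP3 were 0.08 ± 0.29 apart, well within the error, although each gene rests on 1 probe.

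ZP2, which is cleaved after fertilization to block further sperm, was measured by 2 probes that disagreed. The brighter probe (A_72_P303259) had an intensity of 529 ± 53.0 for the minipig and 141 ± 14.4 for the conventional pig, which after scaling is 3.89-fold higher on the minipig array. The dimmer probe (A_72_P186611) had 20.9 ± 3.83 and 29.8 ± 4.34, in the other direction, with a log2 difference of -0.46 ± 0.34. Both spots of the dimmer probe carried the flag for being well above background, but the lowest intensities with that flag were 10.6 and 11.5. Before background correction its spot medians were 51 and 60 over local backgrounds of 22 and 23.

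The probes of ZP2 were thus 2.42 ± 0.40 apart on the log2 scale, about 6 times the error. The gene's value of 0.75, the median of both, falls between measurements that differ and describes neither. With the brighter probe alone, ZP2 stands at 1.96 ± 0.21, above ZP4 by 0.55 ± 0.29 and above ZP3 by 0.63 ± 0.29, both close to 2 errors of the software. Counted in that way, 5 of the 7 genes reach 2-fold.

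**Figure D3:**
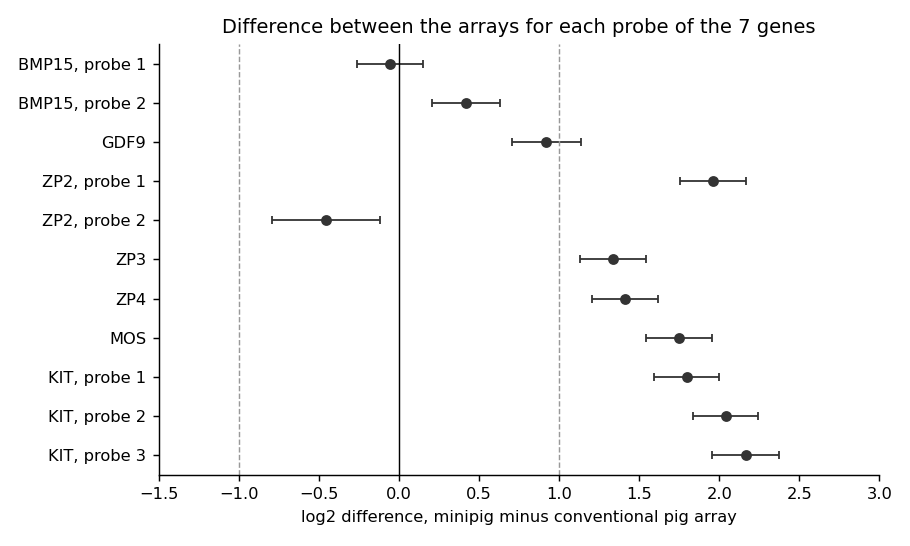
Log2 difference (minipig minus conventional pig array, each array set to 0 at its 75th percentile) of each probe, with its 1-SD spot error and dashed lines at 2-fold in either direction. The 3 KIT probes lie together between 1.80 and 2.16, whereas the 2 ZP2 probes lie on opposite sides of 0.

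By the median over probes, MOS and KIT showed the largest differences, while with the brightest probe of each gene ZP2 (1.96) stood above KIT (1.80) and MOS (1.75). The intensity of MOS, the meiotic kinase, was 482 ± 48.2 for the minipig and 149 ± 15.1 for the conventional pig (probe A_72_P146921). Its scaled value was 3.36-fold higher on the minipig array, with a log2 difference of 1.75 ± 0.21. This is 0.83 ± 0.30 above the difference of GDF9 and 0.34 ± 0.29 above that of ZP4, so that it stood apart from the former by more than 2 errors and from the latter by less.

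KIT was the only one of these genes with 3 probes, and these gave like differences. The first (A_72_P165111) had an intensity of 9141 ± 914 for the minipig and 2732 ± 273 for the conventional pig. The next (A_72_P441559) had 5530 ± 553 and 1396 ± 140. The last (A_72_P180731) had 476 ± 47.7 and 110 ± 11.3. On every probe the minipig array was the higher, by 3.47-fold, 4.11-fold and 4.48-fold after scaling.

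The log2 differences of the KIT probes were 1.80 ± 0.20, 2.04 ± 0.20 and 2.16 ± 0.21, and the outer values were 0.37 ± 0.29 apart. Each lay within 2 errors of MOS, by 0.05 ± 0.29, 0.29 ± 0.29 and 0.42 ± 0.29 in the same order. KIT has the highest median over probes, 2.04, but on these spots its difference is not separable from that of MOS. KIT ligand (KITLG), the growth factor of granulosa cells that binds KIT, stood at 0.13 with its single probe. The sign of that difference turned with quantile (-0.15) or loess (-0.12) normalization and with median centring (-0.03).

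The order of the differences by gene value was KIT, MOS, ZP4, ZP3, GDF9, ZP2 and BMP15. Neighbours in this order did not differ by 2 errors between the probes of KIT and MOS, between MOS and ZP4, between ZP4 and ZP3, or between ZP3 and GDF9 (0.41 ± 0.30). The order did not depend on the constant taken off each array, but ZP2 moves from 0.75 to 1.96 with the choice of probe, and with normexp ZP2 (0.74) stood above GDF9 (0.45). The deposited table holds 7 of the 11 probes, those past 2-fold, and so lists ZP2 through its brighter probe, ZP3, ZP4, MOS and all of KIT, while BMP15 and GDF9 are not among its rows. In its own normalization, ZP2 stands at -1.86 in the column for the minipig and at 0.10 in that for the conventional pig. There the same intensities thus appear with the breeds exchanged.

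**Figure D4:**
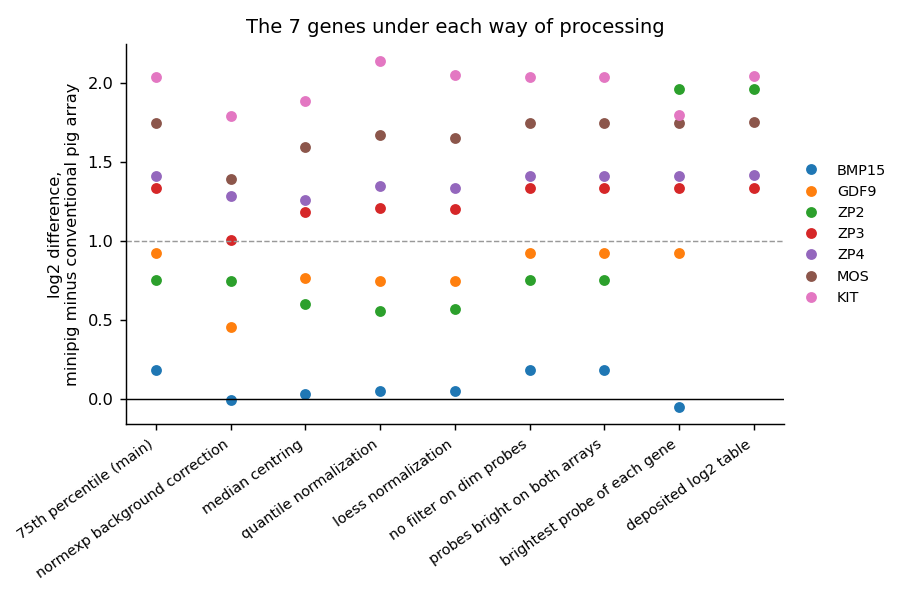
Log2 difference (minipig minus conventional pig array) of the 7 genes under the main setting and 8 alternatives, by the scanner labels, with a dashed line at 2-fold. BMP15 and GDF9 have no value under the deposited table. KIT, MOS, ZP4 and ZP3 stay at or above 1.004, BMP15 lies between -0.05 and 0.18, and ZP2 is at 1.96 where 1 probe is used.

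Other genes of the oocyte and germ line lay on both sides of 0. The list held 50 further genes, of which 11 had a value. Above 0 were 7 of them, LIN28A not under median centring, beside 47.5% of all named genes. The median log2 difference of the list was 0.35, but 0.20 with median centring, 0.08 with quantile and 0.10 with loess normalization. Past 2-fold were KPNA7, an oocyte importin, at 1.61 and UCHL1, a deubiquitinase of germ cells and neurons, at -2.37. The 2 probes of KPNA7 gave 0.23 and 2.99. ZAR1, a maternal factor of early cleavage, had the next largest difference at 0.84. The list also holds genes that many somatic cells express, such as CD9 and CD81. FIGLA, NOBOX, DAZL and DDX4, all widely used markers of oocytes and germ cells, could not be matched to a probe.

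GDF9 and BMP15 signal to SMAD proteins, and a list of their receptors, SMAD proteins, related ligands and direct targets lay mostly within 2-fold. Of 30 genes, 16 had a value, 3 reached 2-fold on the minipig side and 0 on the other. The median was 0.27, but 0.12 with median centring and 0.38 with quantile normalization. The highest was ID2, a target of BMP signalling that blocks helix-loop-helix factors, at 1.99 with its 5 probes from 1.75 to 2.33. TGFBR3, a co-receptor, was at 1.31 and TGFB3, a ligand, at 1.09, which fell to 0.93 with median centring. Of the type I receptor genes, ACVR1 was at 0.41, BMPR1B at -0.11 and TGFBR1 at -0.63, and the 3 probes of BMPR1B ran from -0.61 to 1.04.

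Among 29 cumulus and granulosa genes known to respond to these factors or to the LH surge, 15 had a value and differences ran far in both directions. On the minipig side, 6 genes reached 2-fold. They were FSHR, the FSH receptor (3.63), HSD17B1, an estradiol-forming enzyme (2.96), the inhibin subunits INHA (2.61) and INHBA (1.77), PTGS2, a prostaglandin synthase (1.75), and AMH (1.03). The probes of AMH ran from 0.09 to 2.22, and its value fell under 2-fold with median centring (0.87). The value of PTGS2 includes a bound, and the probes of INHBA gave -0.37 and 3.91. The 3 genes past 2-fold on the conventional pig side were the EGF-like factor AREG (-3.01), the cholesterol carrier STAR (-3.07) and TNFAIP6 (-3.22), which binds the hyaluronan matrix of the cumulus.

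Genes of the KIT signalling chain lay on both sides of 0. Of 31 genes 10 had a value, with a median of 0.14, and 0 reached 2-fold on the minipig side and 1 on the conventional pig side. STAT5B, a transcription factor, was at -1.23, GRB2, an adaptor protein, at -0.61, and CDKN1B, a cell cycle inhibitor, at 0.85. The median of the list turned to -0.01 with median centring.

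In the list for MOS, 15 of 36 meiotic kinases, cyclins and regulators had a value, with a median of 0.75 that fell to 0.48 with quantile and 0.45 with loess normalization. Past 2-fold on the minipig side were CDC20 (1.63), AURKB (1.59), CDK1 (1.503) and CCNB1 (1.42), all of which also act in mitosis. The probes of AURKB ran from 0.02 to 1.67. MAP2K1, the kinase that MOS phosphorylates, was at -0.82, and its 5 probes ran from -1.44 to 0.17. The other array was higher by over 2-fold for PGRMC1, a progesterone-binding membrane protein (-2.12), and SPDYA, an activator of CDK1 (-1.70), of whose 4 probes 2 were measured only as bounds.

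**Figure D5:**
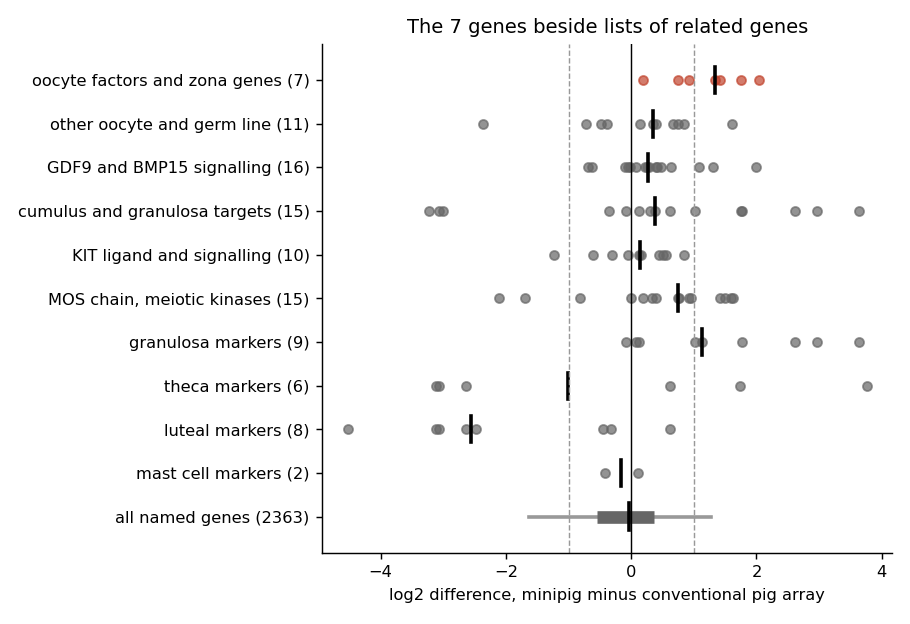
Log2 difference (minipig minus conventional pig array) of each gene with a value, by list, with the median of the list as a black bar, the number of genes in brackets, dashed lines at 2-fold and, in the bottom row, all named genes as the range from the 5th to the 95th percentile (thin) and from the 25th to the 75th (thick). The oocyte factors and zona genes have a median of 1.33, the granulosa markers 1.13 and the luteal markers -2.55.

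Markers of other ovarian cell types also differed between the arrays. Of 12 granulosa markers 9 had a value, 8 were above 0 and 6 reached 2-fold on the minipig side, beside 47.5% and 7.96% of all named genes. Below 0 was the aromatase gene CYP19A1 (-0.09), whose 2 probes gave -0.52 and 0.34. KITLG turned below 0 under the 3 other scalings, and FST (0.08) under median centring (-0.08). Among the 6, the transcription factor GATA4 (1.13) fell just under 2-fold with median centring (0.98), quantile (0.97) and loess normalization (0.97). AMH (1.03) also fell under 2-fold with median centring (0.87). The summed level of the list in multiples of the 75th percentile, which weighs each gene by the intensity of its own probes, was 41.3 for the minipig and 18.2 for the conventional pig, and the probes of HSD17B1 and of FST, respectively, added most to it. Of 8 luteal markers all had a value, 7 were below 0 and 1 above, and 5 reached 2-fold on the conventional pig side, SCP2 (-4.52), HSD3B1 (-3.11), STAR, CYP11A1 (-2.63) and PTGFR (-2.48). The others were OXT (-0.33) and RLN2 (-0.45), both at -0.06 with quantile normalization, and LHCGR (0.62). Their summed level was 117 for the minipig and 318 for the conventional pig, to which the probes of OXT and of STAR added most. Every marker with a value was well above background on at least 1 array. The part of these cells in the differences of the oocyte genes was not tested.

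Theca and mast cells can also carry KIT. The theca list, with 6 of 7 genes valued, was divided between INSL3 (3.76) and CYP17A1 (1.74) on the minipig side and the 3 steroidogenic genes CYP11A1, STAR and HSD3B1, shared with the luteal list, on the other. Its summed level was 106.6 for the minipig and 212 for the conventional pig, with the largest contributions from the probes of INSL3 and of STAR. In the same order of arrays, INSL3 gave 72.0 and 5.32 and STAR 16.2 and 146, so the sum gives no direction for theca cells. Of the 8 mast cell markers 2 had a value, MS4A2 (0.11) and GATA2 (-0.43), and MS4A2 turned below 0 under all 3 other scalings. The summed level of these 2 genes was 2.27 for the minipig and 2.97 for the conventional pig, most of it from the probe of GATA2. The part of theca and mast cells in the difference of KIT was not tested.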

How the data were processed

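Total RNA of ovarian tissue was labelled with Cy3 and hybridised to a porcine Agilent array, 1 for each breed, both on 1 slide. The authors extracted the images with Agilent Feature Extraction 10.7.3.1 (per the labels), and the deposited intensity of a spot is corrected for background and spatial trend, with no scaling between arrays. The authors also deposited normalized log2 values of 5617 probes, for which the paper names GeneSpring. The columns of that table have medians of -0.93 (minipig) and -0.66 (conventional pig) and equal log2 intensities of the opposite arrays minus 9.00 and 8.94, and the source of these constants is not stated. No spot was saturated, and 88.1% (minipig) and 85.2% (conventional pig) of probes were well above background. The number of arrays limits the precision.

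Outlier spots (5 on the minipig array, 10 on the other) and controls were removed, repeats were averaged on the log2 scale, and the 75th percentile of each array (intensities 494 and 513) was subtracted. Where only 1 array was well above background, a bound was taken against the lowest such intensity on the other or, if higher, the dim spot's own. A gene's value is the median over its probes. Errors of differences combine the spot errors of both arrays. RefSeq names without version numbers were looked up in the Sscrofa11.1 table, which gave a gene for 5577 of 43597 probes. No coordinates or sequences were used. The 12 lists of other genes overlap, and from each the genes past 2-fold were named, or the 3 with the largest difference where fewer were. ACVR1, BMPR1B, TGFBR1, KITLG, FST, LIN28A, LHCGR, OXT, RLN2, MAP2K1, CYP19A1, ESR1 and FSHB were added after their values were seen. The 7 genes and the lists were chosen with earlier results of these data known. No p-value was computed, since each breed has 1 array. Alternatives were normexp (limma 3.58.1, R 4.3.3, offset 50, on median signals), median centring, quantile and loess (span 0.3) normalization, other filters on dim probes, the brightest probe, other folds and the deposited table. Scaling, bounds and calls were tested on data with known answers. Software was Python 3.11.15, numpy 2.4.6, pandas 2.3.3 and statsmodels 0.14.6.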

Additional observations from a re-analysis of the deposited data

How the results depend on the processing

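By the scanner labels, KIT, MOS, ZP4 and ZP3 reached 2-fold on the minipig side under all 8 alternative treatments of the intensities. Where they had a value, 0 of the 7 genes was 2-fold higher on the other array under any of them. The deposited table lacks BMP15 and GDF9 and holds only probes past 2-fold. All probes of the 7 genes were well above background on both arrays, so the other filters on dim probes could not change their values. Nor could the deposited table place a gene below 2-fold, or the brightest probe change a gene with 1 probe, such as ZP3, ZP4 and MOS. For these genes only normexp, median centring, quantile and loess normalization could thus move a call. KIT ranged from 1.79 to 2.14, MOS from 1.39 to 1.75, ZP4 from 1.26 to 1.41 and ZP3 from 1.004 to 1.34. GDF9 ranged from 0.45 to 0.92, and its lowest value came with normexp. ZP2 stood at 0.75, at 0.56 with quantile normalization and at 1.96 with its brightest probe. BMP15 changed sign, at -0.01 with normexp and -0.05 with its brightest probe. The median of the genes was 1.004 with normexp and 1.75 over the 5 genes of the deposited log2 table, which lists only probes past 2-fold, and between 1.18 and 1.41 under the others. A 3-fold threshold left 2 genes. Median centring, quantile and loess normalization shifted the median difference of all probes by -0.15, -0.12 and -0.12.

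An alternative chosen after seeing the data takes the breeds as the deposited table assigns them. That table holds 5 of the 7 genes, each through probes past 2-fold, and over these the median is -1.75, with 0 genes 2-fold higher on the minipig side and 5 on the conventional pig side. ZP3 stands at -1.34, ZP4 at -1.41, MOS at -1.75, KIT at -2.04 and ZP2 at -1.96. What lies behind the exchange was not tested. In all, 4 of the genes have 1 probe each, and the spread between animals was not measured.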

Other observations

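The named genes whose difference lay closest to the median of the oocyte factors and zona genes, among genes with at least 2 probes that were all well above background and all in 1 direction, were RPIA (1.34), an enzyme of the pentose phosphate pathway, CNN1 (1.32), a calponin of smooth muscle, and ST3GAL4 (1.39), a sialyltransferase. Likeness here is the distance between 2 differences over 2 arrays.

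Markers of further tissues gave mixed values. Of 5 smooth muscle markers 3 had a value. DES was at 1.998 and CNN1 at 1.32, while ACTA2 was at -0.10 and turned above 0 under quantile (0.17) and loess normalization (0.08). Of 7 endothelial markers 3 had a value, CDH5 (-0.36), PECAM1 (-0.55) and ENG (-0.80), all below 0. Of 6 leukocyte markers 3 had a value, CD163 (0.25), CD3E (-0.22) and CD14 (-1.04).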
